A study of Danio rerio with 8 samples.

Results

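The genes described here are 50 zebrafish genes of DNA replication and mitosis, given by symbol: 22 that copy DNA or ready chromosomes for copying, 4 that control entry into S phase and 24 that drive or police mitosis. Every array probe whose transcript accession belongs to one of them was taken, a rule that uses no measured value. Probes were found for 39 of the 50 genes, 94 probes in all. Of these genes 38 (19 of replication, 3 of G1/S control and 16 of mitosis) were tested, among 23402 genes tested on the whole array. The symbol gins1, a subunit gene of the GINS complex, had 2 probes, neither of them well above background on more than 1 of 4 arrays of a group, so that it carries no level here. No probe was matched to cdt1, pola1, e2f1, incenp, tpx2, bub1, bub1bb, espl1, top2a, cenpf or mki67, which were not analysed here. The symbol rrm2 is an older name of rrm2l, whose 6 probes stand for it.

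A dividing cell first licenses its replication origins by loading the ring-shaped MCM helicase, then fires them and copies its DNA in S phase, and later condenses and separates the chromosomes under the kinase Cdk1 and the spindle checkpoint. Transcripts of both phases come mainly from dividing cells, so in a whole larva they are carried by growing tissues such as the ciliary margin of the retina, brain ventricular zones, blood, gut and skin. LIS1, which binds the motor dynein, is known both for neuronal migration and for the positioning of the mitotic spindle.

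RNA came from whole larvae of the WIK background at 4 days post fertilization, 10 larvae to a pool, with 4 control pools and 4 pools of larvae in which LIS1 was transiently knocked down with a morpholino, an antisense oligomer that blocks a transcript. Morphants had been picked because they showed seizure behaviour and a slight phenotype, and shared egg pools gave both groups. Whether the controls were injected is not given in the sources used here. Each pool was hybridised to 1 single-colour array, and a control and a morphant pool of the same number lay on the same slide.

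Each level below is the log2 signal minus that array's 75th percentile, listed in the order of pools 1 to 4. A change is the morphant mean minus the control mean (n = 4 pools each), given with its standard error (SE) where the gene passed. They do not rank genes against each other, since probes differ in brightness. A gene passed if its limma p-value, adjusted over all 23402 genes, was under 0.05, and a gene with several probes is represented by its brightest. The 75th percentile of raw signal averaged 1237 ± 178 on control arrays and 1598 ± 154 on morphant arrays (SD, n = 4 each; two-sided exact permutation p = 0.0571), while the added spike-in RNA was dimmer on morphant arrays, at 12.31 ± 0.09 against 12.67 ± 0.16 log2 units (SD, n = 4 each; exact permutation p = 0.0286, the smallest that 4 against 4 allows). Scaling the arrays to the spike-ins therefore moved every gene up by 0.74, and the median change of all genes from -0.06 to 0.68. All directions below are relative to the 75th percentile, and the medians of the replication, mitosis and MCM2-7 genes are also given against the median of all genes, a difference which that rescaling does not alter. In whole larvae, fewer dividing cells and less RNA per dividing cell cannot be told apart.

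In this fit the few calls among the replication genes were all downward, and the few among the mitosis genes went both ways. Among 19 replication genes 5 fell (gmnn, cdc45, mcm6, rrm2 and mcm2) and none rose, with a median change of -0.30. These 5 are 26.3% of the class, near the 21.9% of all genes that were lower. Among 16 mitosis genes, aurkb and ttk fell, smc4 and cdk1 rose, and the median was -0.08. None of the 3 G1/S genes passed. In all, 9 of the 38 genes passed (23.7%), where 38.3% of all genes tested did. By direction, 7 were lower (21.9% of all genes were) and 2 higher (16.4% of all genes were). Against the median of all genes, the replication median lay 0.24 lower (-0.24) and the mitosis median at -0.03. With a gene's probes averaged these differences were -0.14 and 0.147.

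**Figure D1:**
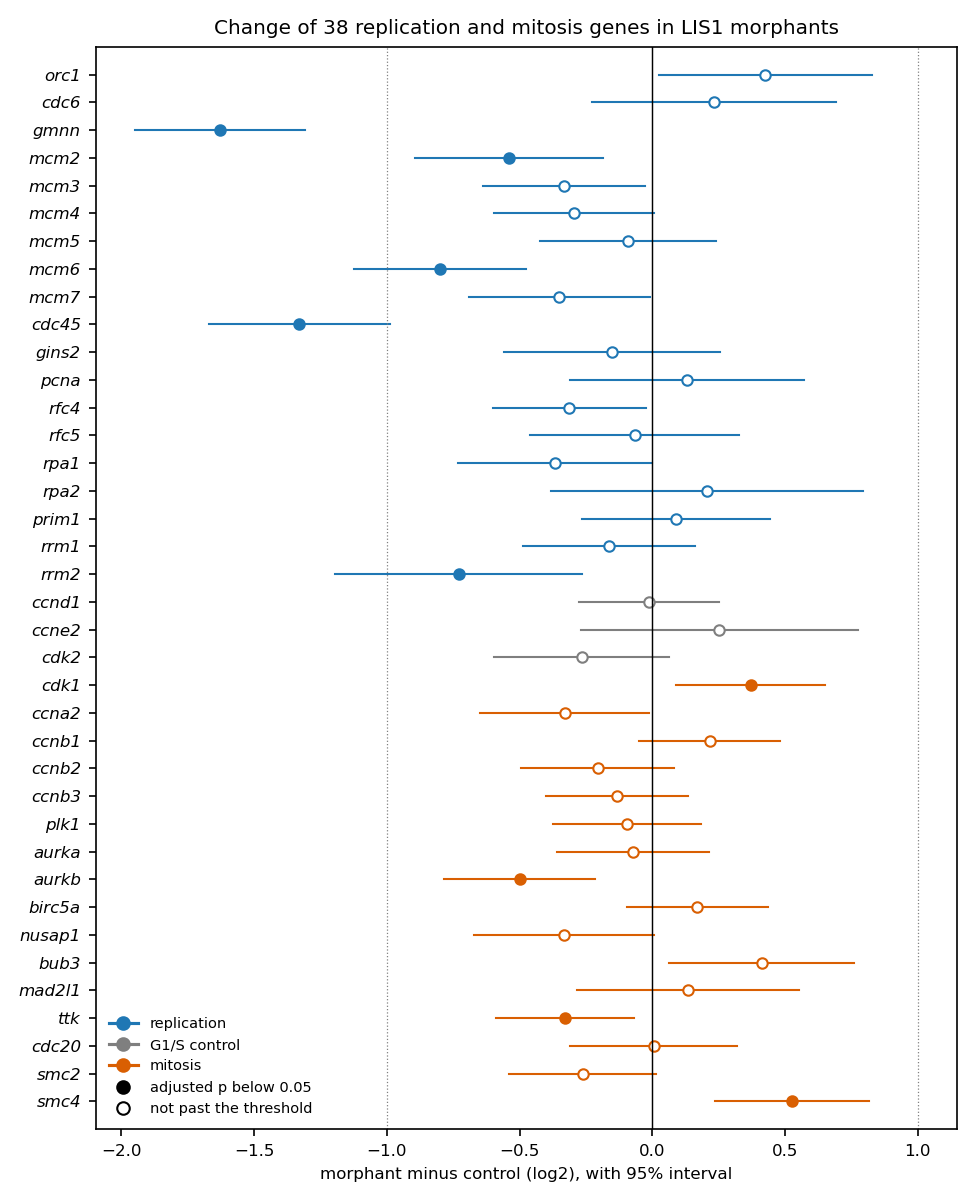
Change of each of the 38 tested genes in LIS1 morphants (log2, relative to the 75th percentile of each array) with its 95% interval, coloured by class. Filled points passed an adjusted p of 0.05, and dotted lines mark a 2-fold change. Of the replication genes, gmnn and cdc45 lie beyond the lower line, and no mitosis gene lies beyond either line.

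Most changes were small. The 95% interval of the change lay within 2-fold either way for 34 of the 38 genes, where this held for 58.2% of all genes. The exceptions were gmnn, cdc45, mcm6 and rrm2. For all 29 genes that did not pass, the intervals stayed between -0.73 and 0.83. This holds for the brightest probe only, since other probes of smc2, ccnb1, cdc6 and cdc20 among them had larger changes, given with each gene. The median size of the change, whatever its sign, was 0.26 for the 38 genes and 0.41 for all genes. The 4 morphant pools did not overlap the 4 control pools for 11 of the 38 genes, against 38.1% of all genes: the 9 that passed, rfc4 and smc2.

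At the probes that represent the 38 genes, the largest change was that of gmnn, the gene of geminin. Geminin binds the licensing factor Cdt1 and prevents origins from being licensed again in the same cycle. A cdc20 probe that does not represent its gene changed by more, at -5.78, a size that is uncertain. gmnn read -0.60, -0.47, -0.44 and -0.46 in the controls and -1.92, -2.18, -1.94 and -2.45 in the morphants. Every morphant pool lay far under every control pool, and the controls spanned a narrow range. The change was -1.63 (SE 0.14, adjusted p = 0.000103), a 3.09-fold lower level. A second gmnn probe, tested among all probes, changed by -1.95 (adjusted p = 0.000136). gmnn passed in every fit that left out an array, and it also passed at -0.89 after scaling to the spike-ins.

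The 6 subunit genes of the MCM2-7 helicase, the ring that licensing loads onto origins, all had changes below 0, as did 12693 of all 23402 genes. The median of the 6 was -0.34, or -0.29 against the median of all genes, although after spike-in scaling 1 of the 6 was below 0. Of the 6, mcm6 and mcm2 passed, where 38.3% of all genes did. mcm6 read 3.19, 3.25, 3.10 and 3.10 in the controls and 2.39, 2.28, 2.69 and 2.08 in the morphants, a change of -0.80 (SE 0.14, adjusted p = 0.00307). The groups were well apart, and mcm6 passed without any single array, although its dimmer probe changed by -0.14 (adjusted p = 0.514 over all probes). After spike-in scaling mcm6 did not pass (-0.06, adjusted p = 0.807).

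mcm2 read 3.74, 3.57, 3.58 and 3.57 in the controls and 3.15, 2.74, 3.42 and 2.98 in the morphants. Morphant pool 3 was close under the controls, and the other morphant pools were lower. Its change of -0.54 (SE 0.16, adjusted p = 0.0244) was lost without control pool 1, 2 or 3 or morphant pool 2 or 4, at adjusted p-values of 0.0514 to 0.0567, and its other probe changed by -0.04 and did not pass (adjusted p = 0.844 over all probes).

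The other 4 subunits did not pass. mcm3 changed by -0.33 (adjusted p = 0.0795) and mcm4 by -0.30 (adjusted p = 0.108). At these brightest probes every morphant pool was below the control pool of its slide. The dimmer mcm3 probe changed by -0.26 and was lower on 3 of 4 slides. Dimmer mcm4 probes changed by -0.30 to -0.04, and those at -0.14 and -0.04 were lower on only 1 slide. None of these dimmer probes passed. mcm7 read 4.33, 4.09, 4.03 and 3.81 in the controls and 3.75, 3.56, 3.97 and 3.58 in the morphants. That is a change of -0.35 (adjusted p = 0.0957) with overlapping groups, and its other probes lay between -0.40 and 0.29. mcm5 read 3.37, 3.11, 3.37 and 3.19 in the controls and 3.20, 3.08, 3.48 and 2.91 in the morphants. Here the groups overlapped fully (-0.09, adjusted p = 0.643), and the other probes ran from -0.53 to 0.14. Without morphant pool 3, mcm3 passed (adjusted p = 0.034). That pool held the highest morphant reading of 5 of the 6 MCM genes, all but mcm4.

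Genes of the factors that load the ring had changes above 0 and did not pass. orc1, a subunit gene of the origin recognition complex, read -0.70, -1.10, -0.72 and -1.39 in the controls and -0.37, -0.60, -0.51 and -0.72 in the morphants. It was higher on all 4 slides, changed by 0.43 (adjusted p = 0.0881), and passed with the replicate number fitted as a block (adjusted p = 0.0324). cdc6, which recruits the helicase to the origin complex, changed by 0.23 (adjusted p = 0.392) and was also higher on all 4 slides. Its far dimmer second probe, well above background on 1 of 4 control arrays, changed by 0.90 without passing (adjusted p = 0.0925 over all probes).

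The helicase is switched on when Cdc45 and the GINS complex join the MCM ring. cdc45 read 0.95, 0.69, 0.67 and 0.48 in the controls and -0.50, -0.92, -0.45 and -0.66 in the morphants. All morphant pools lay more than 2-fold below the control pool of their slide. The change was -1.33 (SE 0.15, adjusted p = 0.000354), or 2.51-fold lower, and it passed without any single array and after spike-in scaling (-0.59). A far dimmer second probe changed by -0.10 and did not pass (adjusted p = 0.866 over all probes). gins2, a GINS subunit gene, changed by -0.15 (adjusted p = 0.533), and its other probe by -0.47 (adjusted p = 0.0817 over all probes).

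**Figure D2:**
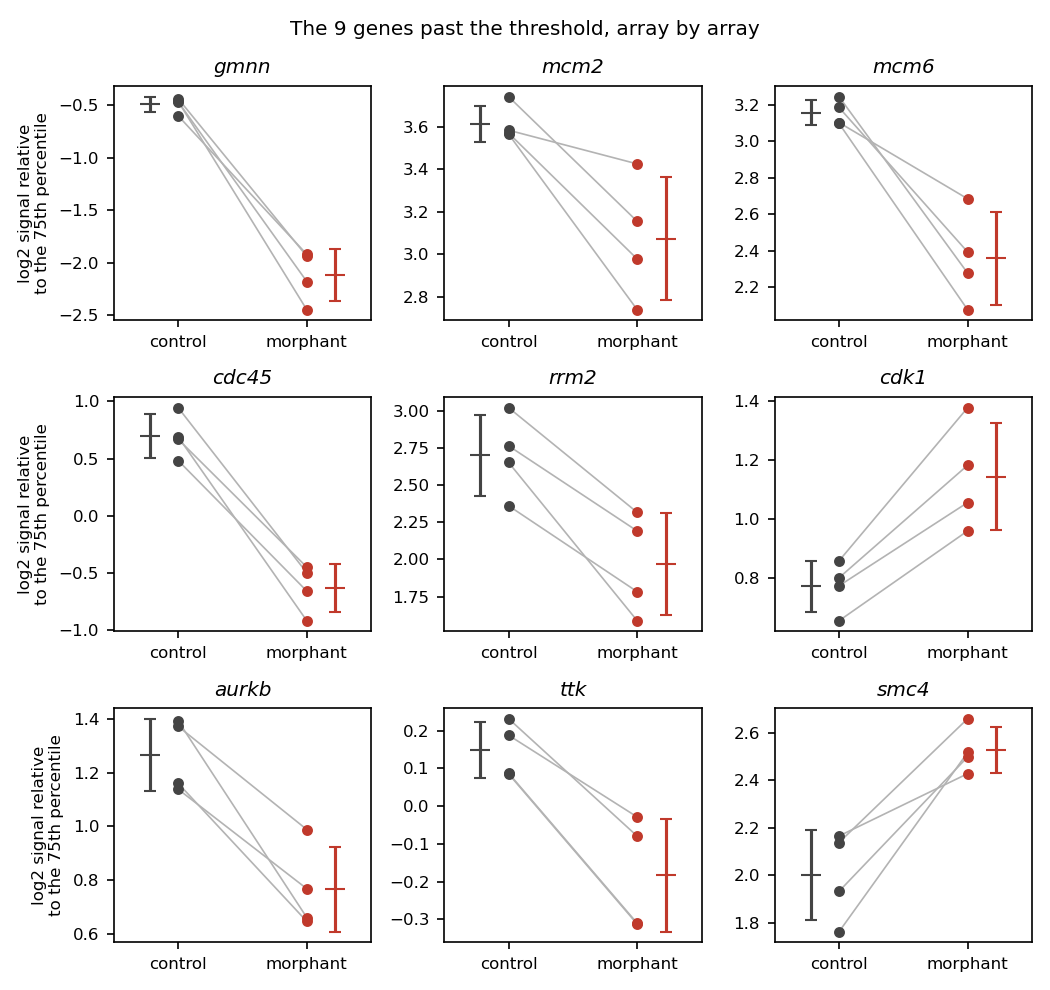
Levels of the 9 genes that passed, in each pool (log2 signal relative to the 75th percentile of the array; axes differ between panels and do not start at 0). Grey lines join the control and morphant pool of a slide, and bars give mean ± SD (n = 4). In all 9 panels the morphant pools lie wholly to one side of the control pools, below them in 7 and above them for cdk1 and smc4. The 9 genes were selected by the test on these same pools, so this separation is not separate evidence of a change. Over the whole array, 38.1% of genes tested had pools separated in this way.

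No gene of synthesis at the fork passed. The clamp gene pcna, whose product holds the polymerases on DNA, read 2.09, 1.67, 1.85 and 1.33 in the controls and 2.12, 1.93, 1.90 and 1.51 in the morphants. The groups overlapped, with a change of 0.13 (adjusted p = 0.623), and the other probe stood at -0.10. The clamp loader gene rfc4 read 2.30, 2.02, 2.07 and 1.98 in the controls and 1.98, 1.76, 1.78 and 1.60 in the morphants. Its groups did not overlap, and its change of -0.31 (adjusted p = 0.0815) passed with the replicate block (adjusted p = 0.0396), as did its second probe among all probes (-0.39, adjusted p = 0.0399).

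rpa1, the large subunit gene of the protein that coats single-stranded DNA, read 1.47, 1.68, 1.74 and 1.43 in the controls and 1.08, 1.20, 1.61 and 0.97 in the morphants. Morphant pool 3 fell among the controls. The change of -0.37 (adjusted p = 0.103) passed with the block (adjusted p = 0.0396) and without morphant pool 3 (adjusted p = 0.0254), and a second probe changed by -0.37 as well (adjusted p = 0.04 over all probes). The partner subunit gene rpa2 changed by 0.21, the loader gene rfc5 by -0.07 and the primase gene prim1 by 0.09, with adjusted p-values of 0.558, 0.786 and 0.686.

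Deoxynucleotides for S phase are made by ribonucleotide reductase, whose large and small subunits are encoded by rrm1 and rrm2. rrm2 read 2.36, 2.76, 3.02 and 2.65 in the controls and 1.78, 2.19, 2.32 and 1.59 in the morphants. The highest morphant pool was just under the lowest control pool, and the changes within slides ran from -1.06 to -0.57. The change was -0.73 (SE 0.20, adjusted p = 0.0221). All 6 of its probes had changes below 0, between -0.73 and -0.11, and another passed at -0.61 (adjusted p = 0.017 over all probes). The call was lost without control pool 2 or 3 or morphant pool 1 or 4, at adjusted p-values of 0.0502 to 0.0597. rrm1 read 3.12, 3.10, 3.07 and 2.89 in the controls and 3.14, 2.85, 2.96 and 2.57 in the morphants, a change of -0.16 (adjusted p = 0.392) with overlapping groups. Its other probes stood at 0.22 and 0.29, neither passing.

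No G1/S gene passed. ccnd1, the cyclin D1 gene that answers growth signals, read 3.52, 3.43, 3.45 and 3.67 in the controls and 3.66, 3.47, 3.54 and 3.35 in the morphants, a change of -0.01 (adjusted p = 0.944). Its other probes ran from -0.25 to 0.39. cdk2, the kinase of S phase entry, read 1.46, 1.16, 1.35 and 1.03 in the controls and 1.02, 1.02, 1.18 and 0.72 in the morphants. It was lower on every slide, with a change of -0.27 (adjusted p = 0.178) and its other probe at 0.05. Its partner gene ccne2, a cyclin E, changed by 0.25 (adjusted p = 0.411).

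In mitosis, cdk1 encodes the kinase that starts it. cdk1 read 0.86, 0.66, 0.77 and 0.80 in the controls and 1.38, 0.96, 1.06 and 1.18 in the morphants. All morphant pools were higher, the lowest of them by a small margin, and the change was 0.37 (SE 0.12, adjusted p = 0.0422). It kept its call without control pool 1 or morphant pool 2 only, and was lost in the other 6 fits that left out an array, at adjusted p-values of up to 0.113.

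Its cyclin partners did not pass and did not share a direction. ccnb1, a cyclin B gene, changed by 0.22 at its brightest probe (adjusted p = 0.176), but all 6 of its probes were above 0 and 4 of the dimmer ones passed among all probes, at 0.68 to 0.84. With a gene's probes averaged, ccnb1 passed at 0.59 (adjusted p = 0.0149). ccna2, the cyclin A2 gene, read 1.09, 0.97, 0.82 and 0.76 in the controls and 0.79, 0.46, 0.70 and 0.35 in the morphants. It was lower on every slide, with a change of -0.33 (adjusted p = 0.0944) and other probes at 0.24 and 0.35. ccnb2 read -0.59, -0.89, -0.71 and -1.05 in the controls and -0.96, -1.06, -1.08 and -0.96 in the morphants, a change of -0.21 (adjusted p = 0.229), with its other probe at 0.09. ccnb3 changed by -0.13 (adjusted p = 0.402).

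Among the mitotic kinases, aurkb passed. It encodes Aurora B, the kinase of the chromosomal passenger complex, which corrects faulty attachments of chromosomes to the spindle. aurkb read 1.14, 1.39, 1.37 and 1.16 in the controls and 0.77, 0.66, 0.99 and 0.65 in the morphants. The groups did not overlap, and the change of -0.50 (SE 0.13, adjusted p = 0.0142) passed without any single array. birc5a, the survivin gene of the same complex, changed by 0.17 (adjusted p = 0.277) and was higher on all 4 slides.

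The other spindle genes did not pass. aurka, the Aurora A gene of the spindle poles, read 0.57, 0.21, 0.36 and 0.45 in the controls and 0.35, 0.13, 0.36 and 0.46 in the morphants, a change of -0.07 (adjusted p = 0.677), and its other probes stood at 0.12 and 0.25. plk1, the Polo-like kinase gene, read 1.12, 0.89, 1.02 and 1.01 in the controls and 1.14, 0.71, 0.93 and 0.89 in the morphants. Its groups overlapped (-0.09, adjusted p = 0.57), while a much dimmer second probe passed at 0.78 (adjusted p = 0.0482 over all probes). nusap1, which encodes a microtubule-bundling protein of the spindle, read -0.12, -0.13, -0.11 and -0.66 in the controls and -0.65, -0.65, -0.47 and -0.57 in the morphants. Control pool 4 stood with the morphants rather than with the other controls. The change was -0.33 (adjusted p = 0.109), it passed without that pool at -0.47 (adjusted p = 0.0125), and the other probes gave -0.53 (adjusted p = 0.0462 over all probes) and 0.02.

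The spindle checkpoint holds back anaphase until all chromosomes are attached. ttk, the gene of its kinase Mps1, read 0.23, 0.09, 0.09 and 0.19 in the controls and -0.08, -0.31, -0.31 and -0.03 in the morphants. The groups did not overlap, and within slides the fall was similar, but the change of -0.33 (SE 0.11, adjusted p = 0.0489) kept its call without morphant pool 4 only, and was at adjusted p-values of 0.0676 to 0.123 in the other 7 fits that left out an array. bub3, which encodes a checkpoint protein of the kinetochore, read 1.60, 1.45, 1.22 and 1.60 in the controls and 2.09, 1.94, 1.55 and 1.94 in the morphants. Its levels overlapped between groups but were higher on all 4 slides, and the change of 0.41 (adjusted p = 0.062) passed with the replicate block (adjusted p = 0.0205) and without morphant pool 3 (adjusted p = 0.0237). Its other probe stood at 0.36. mad2l1, the Mad2 gene, changed by 0.13 (adjusted p = 0.59).

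The probes of cdc20, whose product activates the anaphase-promoting complex, gave unlike readings. The brightest read -1.51, -1.91, -1.61 and -1.84 in the controls and -1.63, -1.95, -1.60 and -1.67 in the morphants, a change of 0.0048 (adjusted p = 0.982). A second probe changed by 0.32 without passing. The third, brighter than both in every control pool, read -0.73, -0.81, -0.75 and -0.92 in the controls and -8.10, -6.89, -4.50 and -6.84 in the morphants, where it was well above background on 1 of 4 arrays. Its fitted change of -5.78 (adjusted p = 0.000314 over all probes) is thus of uncertain size. Its low morphant readings are what took it below the first probe in the mean over all arrays, so the change itself decided which probe represents cdc20. With the probe that is brightest in the controls alone, a choice made after seeing the data, cdc20 passed as lower (adjusted p = 0.00034), and it was the 1 gene of the 38 whose probe then differed. Which transcript form each probe reads was not tested.

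Condensin, built on the SMC2 and SMC4 ATPases, compacts mitotic chromosomes, and its subunit genes differed. smc4 read 2.14, 1.76, 1.93 and 2.17 in the controls and 2.66, 2.52, 2.50 and 2.43 in the morphants. All morphant pools were higher, and the change of 0.53 (SE 0.13, adjusted p = 0.012) passed without any single array. Its dimmer probe changed by -0.12 (adjusted p = 0.544 over all probes), and with the probes averaged smc4 did not pass (0.20, adjusted p = 0.204).

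smc2 read -0.30, -0.33, -0.28 and -0.30 in the controls and -0.45, -0.63, -0.37 and -0.81 in the morphants. The groups did not overlap, but the change of -0.26 did not pass (adjusted p = 0.12). Its 3 dimmer probes had larger changes, at -1.40 (adjusted p = 0.000647 over all probes), -1.06 (adjusted p = 0.0193) and -1.47 (adjusted p = 0.105, well above background on 2 of 4 morphant arrays). With the probes averaged smc2 passed, at -1.05 (adjusted p = 0.0139).

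**Figure D3:**
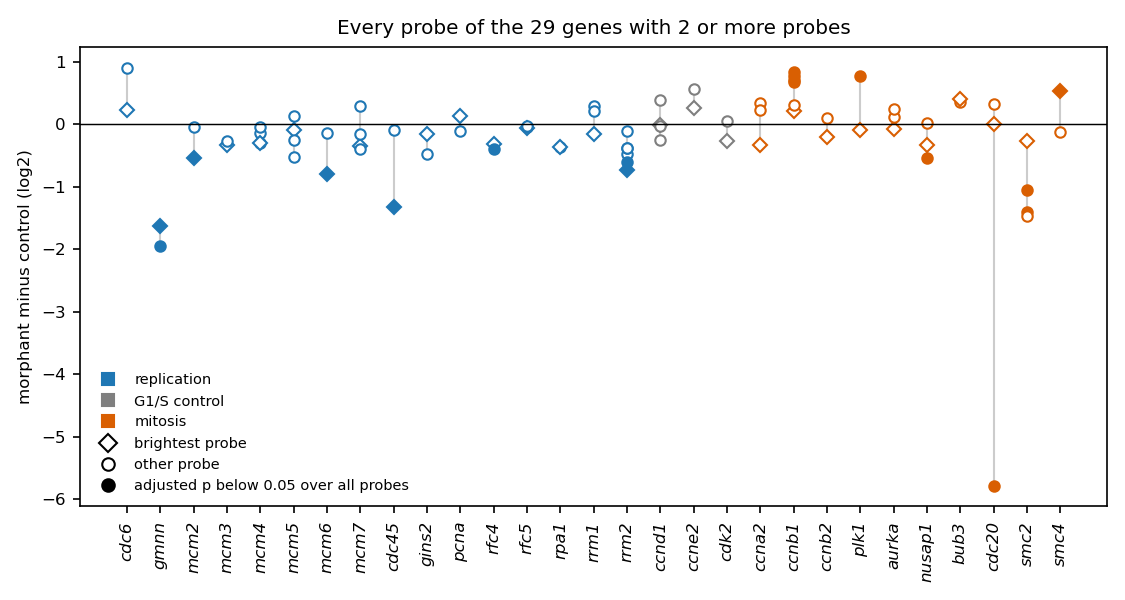
Change of every probe that passed the filter (log2, relative to the 75th percentile of each array), for the 29 genes with 2 or more. Diamonds are the brightest probe of a gene, circles the others, and filled symbols passed among all probes. The low point is a cdc20 probe at -5.78, which was above background on 1 of 4 morphant arrays.

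How far a result rests on 1 probe was read from the 29 genes with several. The probes of 16 of them all had the same sign and those of 13 had both signs. By comparison 36.2% of all symbols with several probes had both signs. The median spread between the lowest and highest probe of a gene was 0.497, and 0.436 over all symbols. No gene had probes that passed in both directions, and 4 genes (gmnn, rrm2, ccnb1 and smc2) had at least 2 that passed the same way. The same counts were not made over all symbols, so these have no share to be read against. Of 91 probes 14 were lower and 7 higher, or 23.1% in all, where 38.5% of all probes passed, 21.0% lower and 17.4% higher.

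The shift of the replication genes was looked at pool by pool, as the median deviation of the 19 genes from their means over all arrays. It was 0.29, 0.20, 0.14 and -0.03 in the control pools and 0.03, -0.16, 0.04 and -0.33 in the morphant pools. The 2 ranges overlapped, since control pool 4 was under morphant pools 1 and 3, but on every slide the morphant was lower. The median change within a slide was -0.32, -0.44, -0.13 and -0.28 on slides 1 to 4, when it was between -0.12 and -0.03 for all genes. For the 16 mitosis genes it was -0.11, -0.06, -0.05 and 0.05, and so did not keep a sign. With the replicate number as a block, 7 replication genes were lower and 1 higher, and 2 mitosis genes lower and 3 higher, where 44.3% of all genes passed, 25.4% lower and 18.9% higher. The difference between the classes was not tested.

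**Figure D4:**
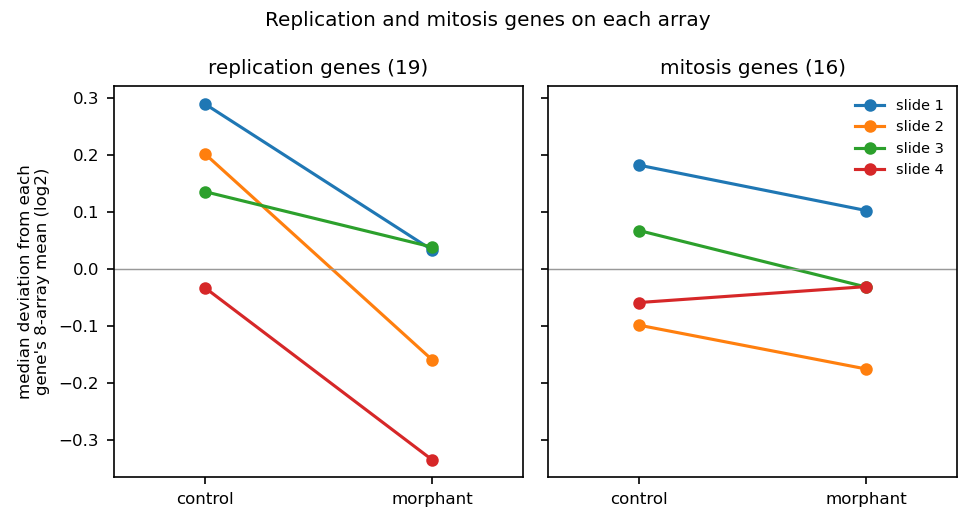
Median deviation (log2) of the 19 replication genes and the 16 mitosis genes from each gene's mean over the 8 arrays, by pool, with lines joining the pools of a slide. Replication genes were lower in the morphant pool of all 4 slides, and mitosis genes in 3 of 4, relative to the 75th percentile of each array.

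The number of calls changed with the pool that was left out. The 5 replication genes that fell became 3 without control pool 2, control pool 3 or morphant pool 4, and 7 without morphant pool 3, where mcm3 and rpa1 joined them. Calls over all genes also became fewer in these fits. They went from 8963 of 23402 to 6793, 7470, 7976 and 8247, in the order of the pools just named. Of the mitosis genes that fell, ttk was lost in 7 of 8 fits, and without control pool 4 nusap1 passed in its place. Of those that rose, cdk1 was lost in 6 of 8 fits, and without morphant pool 3 bub3 passed in its place. Those that passed in all 8 of these fits were gmnn, cdc45, mcm6, aurkb and smc4. After scaling to the spike-ins, gmnn and cdc45 were lower, 9 other replication genes and 11 mitosis genes were higher, and of all genes 4.85% were lower and 56.0% higher.

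Further genes of the same processes were read from lists of textbook members, chosen with earlier results of these data known. Of 39 other replication genes tested, 14 fell and 2 rose, with a median of -0.20. In all 41.0% passed, near the 38.3% of all genes. By direction 21.9% of all genes were lower and 16.4% higher, so the calls of this list leaned further downward. After spike-in scaling 22 were higher and 1 lower, where 56.0% of all genes were higher. The GINS gene gins4 changed by -2.18 (adjusted p = 0.00221) and the DNA ligase gene lig1, which seals lagging-strand fragments, by -1.05 (adjusted p = 0.000566). chaf1a, a gene of the histone chaperone at the fork, changed by -0.81 (adjusted p = 0.00458) and the leading-strand polymerase gene pole by -0.72 (adjusted p = 0.0055). The initiation factor gene mcm10 rose by 0.84 (adjusted p = 0.00534) and the clamp loader gene rfc2 by 0.67 (adjusted p = 0.0196).

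Of 50 other mitosis genes, 6 fell and 5 rose, where 38.3% of all genes passed, with a median of -0.06, or 38 higher and none lower after spike-in scaling, where 60.9% did. Those that fell were led by ckap5 (-0.99, adjusted p = 0.00238), a microtubule polymerase gene, the condensin gene ncaph (-0.75, adjusted p = 0.0143), the spindle gene hmmr (-0.56, adjusted p = 0.00751) and the kinesin gene kif20a (-0.49, adjusted p = 0.00449). Those that rose were led by sgo1 (0.97, adjusted p = 0.000953), which protects centromeric cohesion, the kinetochore gene nuf2 (0.66, adjusted p = 0.00656), ect2 (0.58, adjusted p = 0.00876), which acts in cytokinesis, and the checkpoint gene mad1l1 (0.56, adjusted p = 0.00571). Other probes of sgo1, nuf2 and ncaph included one of the opposite sign.

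Of 22 G1 regulators 5 fell and 4 rose, or 40.9%, again near the 38.3% of all genes, with a median of -0.02. After spike-in scaling 15 were higher and 1 lower, where 56.0% of all genes were higher and 4.85% lower. The kinase genes cdk4 and cdk6 changed by -1.36 and -0.94, the Myc family gene mych by -1.32 and the cyclin gene ccnd2b by -1.12, with adjusted p-values of 0.00681, 0.0205, 0.000682 and 0.0132. The other cyclin D genes ccnd3 and ccnd2a rose by 0.91 and 0.87 (adjusted p = 0.0154 and 0.00523) and lin54, of a repressor complex of cell cycle genes, by 0.33 (adjusted p = 0.0363). e2f5 changed by 1.80 (adjusted p = 0.00041) but was above background on 2 of 4 control arrays.

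**Figure D5:**
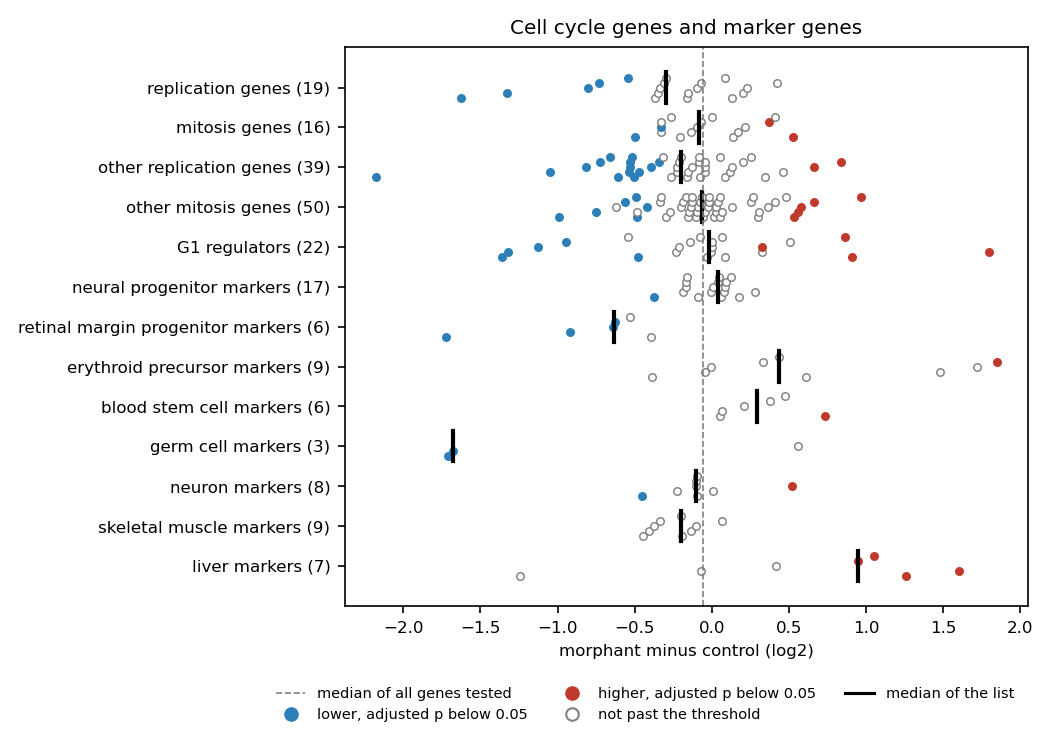
Change of single genes (log2, relative to the 75th percentile of each array) in the replication and mitosis genes, the further cell cycle lists and the marker lists, with the number tested in brackets. Bars are list medians and the dashed line the median of all genes, -0.06. Replication genes have a median of -0.30, other replication genes -0.20 and retinal margin markers -0.63.

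Markers of tissues that hold dividing cells differed in their calls, to be read against the 21.9% of all genes that were lower and the 16.4% that were higher. Of 17 neural progenitor markers 1 fell (olig2, -0.37, adjusted p = 0.0355) and none rose, with a median of 0.04 and summed levels of 154 to 200.1 in the controls and 157 to 176 in the morphants. Of 6 markers of the retinal margin, the growth zone of the eye, 4 fell and none rose, with a median of -0.63. With the replicate block 3 were lower, where 25.4% of all genes were. After spike-in scaling 1 was lower, where 4.85% of all genes were, and the median was 0.11, where that of all genes was 0.68. Summed levels of the 6 retinal margin markers, on the linear scale in units of the 75th percentile, were 9.28 to 10.9 in the controls and 4.98 to 7.72 in the morphants, which did not overlap. In such sums, here and for the other lists, the brightest probes weigh most. Gene by gene, the groups did not overlap for 4 of the 6, against 38.1% of all genes. rx2, a transcription factor gene of retinal stem cells, changed by -1.73 (adjusted p = 2.00e-04).

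Of 9 erythroid precursor markers 1 rose (klf1, 1.85, adjusted p = 0.0332), with sums of 3.10 to 4.25 in the controls and 2.70 to 9.64 in the morphants. The groups overlapped for all 9, klf1 among them, and 3 of the 9 had changes below 0. Of 6 blood stem cell markers 1 rose (lmo2, 0.73, adjusted p = 0.0292), with sums of 1.46 to 1.85 in the controls and 1.89 to 2.30 in the morphants. Of 6 germ cell markers listed 3 were tested, and 2 fell, piwil1 (-1.71, adjusted p = 0.00128) and dazl (-1.68, adjusted p = 0.0426). The third changed by 0.56 and did not pass, and the groups were apart for only 1 of the 3. Their sums were 0.158 to 0.363 in the controls and 0.0910 to 0.163 in the morphants. Markers of neurons, muscle and liver were read against the same shares of all genes, 21.9% lower and 16.4% higher. Of 8 neuron markers 1 rose (gap43, 0.52, adjusted p = 0.0125) and 1 fell (sncb, -0.45, adjusted p = 0.0422). The replicate block took the sncb call away (adjusted p = 0.0609). Of 9 muscle markers none passed, and of 7 liver markers 4 rose, among them fga (1.61, adjusted p = 0.000132) and ambp (1.26, adjusted p = 0.00661). Another liver marker, fabp10a, named after its value was seen, changed by -1.24 (adjusted p = 0.056) and was lower with the replicate block (adjusted p = 0.0157), and serpina1 changed by -0.07 (adjusted p = 0.774). The sums were 95.8 to 102 and 86.7 to 101 for neurons, 1085 to 1475 and 973 to 1267 for muscle, and 223 to 438 and 287 to 371 for liver, in controls and morphants. With the block 3 erythroid precursor markers were higher, where 18.9% of all genes were. After spike-in scaling 15 of the 17 neural progenitor, 7 of the 9 erythroid, all 6 blood stem cell, 6 of the 8 neuron, 5 of the 9 muscle and 6 of the 7 liver markers were higher, and of the germ cell markers 1 was lower and 1 higher. With that scaling 56.0% of all genes were higher and 4.85% lower. The part of these tissues in the lower replication genes was not tested.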

How the data were processed

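Total RNA of 8 pools was labelled with Cy3 and hybridised to arrays of a zebrafish design, number 026437, per the file headers, although the labelling protocol names mouse arrays. Per the file headers, intensity values in the scanner files were made with Feature Extraction 10.7.3.1. A background-subtracted processed signal was used, with raw medians of spot and background for an alternative, and neither was normalized between arrays. Log2 values in the deposited table, made by steps not given in the sources used here, served as a further alternative. Its columns had medians of 8.13 and rank like scanner signals, but 6 of 8 ranked like the file of another pool of the same group, which leaves groups untouched. Against log2 of the raw median signal of the array each column matched, its slope was 0.973 to 1.03 and Pearson's r 0.999 or more, so the columns are on a log2 scale. Probe means over the columns ran from 4.76 to 18.5, so probes were not centred, and log2 levels have no direction to settle.

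From log2 of the processed signal the 75th percentile of its array was taken away, without control or outlier spots, and repeat spots were averaged. Of 43603 probes, 36709 were well above background on every array of a group (4) and were kept. Gene names were given to 25069 probes by accession, through a RefSeq table of assembly GRCz12tu, used for names only. The brightest probe on average over all arrays stood for a gene, and stayed the same in every alternative that left out an array. The test was limma's (version 3.58.1, lmFit and eBayes, in R 4.3.3), with Benjamini-Hochberg adjustment over 23402 genes or 36709 probes. In simulations of the morphant comparison over 23402 genes, 50 of 100 genes changed by 1 log2 unit were called, 89 of 100 changed by 2 units, and 6 others. No further genes were changed there, while 38.3% of all genes passed in the data. The adjusted threshold therefore asked for smaller unadjusted p-values in the simulation. These shares do not give how many such changes the fit of the data calls.

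The genes and lists were chosen with earlier results of these data known. Every gene of the replication and mitosis set is named. Full values are given for those that passed, up to 4 per role, or whose probes differ in sign. From the other cell cycle lists up to 4 genes per direction with the largest change are named, and up to 2 from marker lists. Results of a few listed genes are left out here. The values in full of orc1, rfc4, rpa1, bub3 and smc2 were added after they were seen. Alternatives were normexp background correction (offset 50), quantile, median and spike-in scaling, the filter on dim probes, the choice of probe, the replicate block and leaving out arrays. Added after seeing the data were a count without rrm2, the probe brightest in the controls alone and the further lists under the same alternatives.

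Per the file headers, same-numbered control and morphant arrays came from the same slide and scan. Their deviations from group means correlated at 0.454, 0.159, 0.322 and 0.283. Control pool 2 correlated more with morphant pool 3 (0.283) than with morphant pool 2, so these values do not pair every pool. The numbers pair the arrays by slide and scan. The test that gave the calls did not use this pairing, and the replicate block did. Arrays of a group correlated at 0.976 to 0.993, none were identical, 83.8% to 88.8% of spots were well above background and 0 were saturated. Labels describe the replicates as separate pools, and the number of arrays limits the precision. Promoter motifs were not analysed here.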

Additional observations from a re-analysis of the deposited data

Results flagged for a closer look

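Readings of 1 pool stood apart from the other 3 of its group in 4 of 76 groups of 4 arrays, by the 95% limit of Dixon's gap ratio. Chance alone gives about 1 in 20. For mcm2, control pool 1 read 3.74 and the other controls 3.57 to 3.58, and without it the adjusted p was 0.0531. For nusap1, control pool 4 read -0.66, where the other controls read -0.13 to -0.11. For rfc5, morphant pool 4 read 1.49 and the others 1.78 to 1.84. For prim1 the same pool read 1.01 and the others 1.30 to 1.33.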

How the results depend on the processing

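Over 19 alternatives (11 settings and 8 arrays left out), the 9 genes that passed gave 171 values, of which 130 kept the direction and the call, 37 kept the direction and lost the call, and 4 turned, all 4 under spike-in scaling. The 29 genes that did not pass gave 551 values, of which 28 passed in the same direction, 11 turned and passed, and 31 turned without passing. With normexp and 75th percentile scaling 3 replication genes were lower, 0 mitosis genes lower and 1 higher, and 2681 genes passed in all. With normexp and quantile normalization 1 replication gene was higher. Median scaling left 1 mitosis gene lower and moved the mitosis median to -0.0102 and that of all genes to 0.0175. Spike-in scaling gave 2 replication genes lower and 9 higher with a median of 0.441, 0 mitosis genes lower and 11 higher with a median of 0.654, and 14250 genes in all, with a median of 0.682. It turned 22 genes in all. Those that passed with one of the scalings were mcm2 at 0.197, mcm5 at 0.645, gins2 at 0.587, rfc5 at 0.671, rrm1 at 0.575, rrm2 at 0.0084, ccnd1 at 0.726, ccnb2 at 0.533, ccnb3 at 0.606, plk1 at 0.643, aurka at 0.665, aurkb at 0.238 and ttk at 0.407, and those that passed in neither were mcm3, mcm4, mcm7, rfc4, rpa1, cdk2, ccna2, nusap1 and smc2, at 0.371 to 0.476. Without a filter 1 mitosis gene was lower and 1 higher, and with every probe tested 1 was lower and 14119 probes passed in all. With probes averaged the mitosis median was 0.0922 and cdc20 changed by -1.82. With the probe brightest in the controls cdc20 changed by -5.78 and made 3 mitosis genes lower, with 5 replication genes lower as before. The replicate block left 1 replication gene higher (orc1) and took no call away from the 38 genes. Within slides the replication median was -0.443 on slide 2 and -0.134 on slide 3, and the mitosis median 0.0512 on slide 4. Leaving out an array gave 3 to 7 replication genes lower, 1 to 2 mitosis genes lower, 1 to 2 higher, and 6793 to 8906 genes in all. The replication median then ran from -0.35 to -0.23 and the mitosis median from -0.136 to -0.0175. Without rrm2, 4 replication genes were lower and the median was -0.23. For the turns under spike-in scaling the uniform shift is the cause by construction; elsewhere the cause was not tested. Signals near background limit the dim probes, as for cdc20 and smc2.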
